A study of Mus musculus with 4 samples.

Results

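Heat shock proteins, their DnaJ co-chaperones and the BAG nucleotide exchange factors were examined in infarcted left ventricle with and without the histone demethylase KDM5B. The members were taken by symbol alone, as every gene on the array whose name began with Hspa, Hspb, Hspd, Hspe, Hsph, Hsp90, Dnaja, Dnajb, Dnajc or Bag and went on, where the rule asked for it, with a digit. This gave 78 genes out of 27376 gene names, carried by 150 of 41174 probes, and each gene was read from its brightest probe. The tissue was left ventricle taken 7 days after an infarction made by tying off the left anterior descending artery, and its RNA was hybridised to one-colour Agilent arrays of the whole mouse genome, 2 for each genotype. WT mice were C57BL/6, and KDM5B-KO mice, on the same background, carried a CRISPR/Cas9 deletion in Kdm5b over the JmjC domain, with a frameshift. The paper gives the WT mice of the arrays as littermate controls. The knockout is of the whole animal and not of one cell type. All mice were 8 to 10 weeks old, were labelled male and had been infarcted, so the arrays hold no ventricle without injury. The arrays are called WT 2, WT 3, KO 2 and KO 3 after the numbers in their labels. The labels tie no array to an animal or a pool of animals. Sex-linked transcripts, given below, differed between the 2 arrays of each genotype, so these did not carry the same RNA and their spread is not technical alone.

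Heat shock proteins are chaperones that hold, fold or release other proteins. HSP70 proteins bind unfolded stretches in a cycle of ATP hydrolysis, in which DnaJ proteins (also called HSP40) deliver the client and trigger hydrolysis, and BAG or HSP110 proteins release the nucleotide. Cytosol, mitochondria and endoplasmic reticulum (ER) each have their own HSP70 and partners. In the cytosol the inducible genes are switched on by heat shock factor 1 through heat shock elements, and in the ER by the unfolded protein response through ER stress elements. Small heat shock proteins hold unfolded clients without ATP, and several of them are abundant in heart muscle.

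Levels below are on a log2 scale and set against the 75th percentile of processed signal on the same array, so a level of 0 is that percentile. Where 4 levels are given, they stand in the order WT 2, WT 3, KO 2, KO 3, and where they are given by genotype, number 2 comes before number 3. Levels of different probes cannot be set against each other, so only differences between arrays are compared. A difference is the KO mean minus the WT mean of these levels, with its standard error (SE) from limma, and 1 unit is a 2-fold difference. Of the 78 members, 71 were tested, and all 71 were well above background on all 4 arrays. The other 7 (Dnajb13, Dnajb7, Dnajb8, Dnajc22, Dnajc5b, Dnajc5g and Dnajc6) were too dim in both groups and are counted nowhere below.

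The targeted gene and the labels were checked before the members. The brighter Kdm5b probe read -0.87 and -1.81 in WT and -2.40 and -2.26 in KO, a difference of -0.996 with an SE of 0.40, and whether it lies in the deleted part was not determined. Xist, the RNA of the inactive X chromosome, stood at 4.36 and 3.997 for the WT and KO arrays numbered 2 but at -8.01 and -7.78 for those numbered 3, and the Y-linked gene Ddx3y divided the arrays the other way. The arrays numbered 2 thus went against their label of male, and for that reason differences are also shown for the arrays of one number alone, which leaves a single array for each genotype and no replicates. Tissue markers were present, with the 10 cardiomyocyte markers tested on all arrays, and they ranked the arrays KO 2, WT 2, WT 3, KO 3 from high to low for 10 of 10 genes (8 of 10 with quantile normalization). Their summed processed signal, in units of the 75th percentile, was 948 to 1768 in WT and 641 to 3210 in KO, and none of the defining markers (Myh6, Tnnt2, Tnni3, Actc1) was near background. In bulk tissue, fewer cells of a type and less RNA per cell cannot be told apart. WT arrays held slide positions 1 and 2 and KO arrays 3 and 4, so position and genotype cannot be told apart.

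The promoters of 5 members are shown because they carry the elements that the inducible members are known by, and because the results below turn on these genes. Each stretch ends at the base before the RefSeq start (build GRCm38.p6) and runs 5′ to 3′ along the gene's strand. Capitals in the first 3 mark a heat shock element of at least 2 units, spelled GAANNTTC or TTCNNGAA, and capitals in the last 2 mark the ER stress element, CCAAT followed after 9 free bases by CCACG, read on both strands. The stretches are Hspa1a at chr17:34972157-34972356 (minus strand), Hspa1b at chr17:34959239-34959438 (minus), Hspe1 at chr1:55087998-55088147 (plus), Hspa5 at chr2:34771940-34772089 (plus) and Hsp90b1 at chr10:86705445-86705664 (minus).
Hspa1a: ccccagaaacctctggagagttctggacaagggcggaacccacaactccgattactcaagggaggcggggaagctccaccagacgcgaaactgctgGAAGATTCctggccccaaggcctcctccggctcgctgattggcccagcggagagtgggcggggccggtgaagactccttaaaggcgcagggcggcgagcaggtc
Hspa1b: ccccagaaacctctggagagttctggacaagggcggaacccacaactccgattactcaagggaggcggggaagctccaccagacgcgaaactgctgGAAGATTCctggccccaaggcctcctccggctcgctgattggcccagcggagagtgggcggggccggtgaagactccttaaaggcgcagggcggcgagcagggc
Hspe1: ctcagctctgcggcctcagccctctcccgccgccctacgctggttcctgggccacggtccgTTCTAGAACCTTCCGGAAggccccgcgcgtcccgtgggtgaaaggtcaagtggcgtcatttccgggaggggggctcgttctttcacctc
Hspa5: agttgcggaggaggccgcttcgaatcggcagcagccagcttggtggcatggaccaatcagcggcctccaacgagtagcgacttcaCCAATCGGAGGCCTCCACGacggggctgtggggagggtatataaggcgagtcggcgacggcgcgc
Hsp90b1: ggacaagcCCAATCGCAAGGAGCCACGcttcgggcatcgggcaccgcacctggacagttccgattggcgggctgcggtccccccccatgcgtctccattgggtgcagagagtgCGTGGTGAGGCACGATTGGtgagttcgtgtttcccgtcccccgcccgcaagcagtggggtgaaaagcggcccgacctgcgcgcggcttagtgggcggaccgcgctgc

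Hspa1a and Hspa1b, the 2 copies of inducible HSP70, shared 247 of the 250 bases before their starts (98.8%), lay 10120 bases apart on chromosome 17, and both held the element 104 bases before the start. The Hspe1 stretch also lies upstream of one annotated start (55087932) of Hspd1, its head-to-head neighbour on chromosome 1. It lies within the annotated extent of Hspd1, which reaches 55088243. The same elements, at 55088058 to 55088077, lie up to 145 bases upstream of that Hspd1 start and up to 90 bases upstream of Hspe1. RefSeq gave 81 windows (250 bases before to 50 after a start) for 63 of the 78 members. The element of 2 units was found in 23.5% of these windows against 15.1% of all 32851 windows, and 17 members had it. The element of 3 units, in which GAA and TTC alternate with 2 free bases between them, overlaps the shorter one and was in 0.597% of all windows and in those of Dnajb6, Hspd1, Hspe1 and Hsph1. The ER stress element was in 0.119% of all windows and in those of Dnajc3, Hsp90b1 and Hspa5, where it lay 65 bases before the start. These are matches of letters and not shown to be bound.

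**Figure D1:**
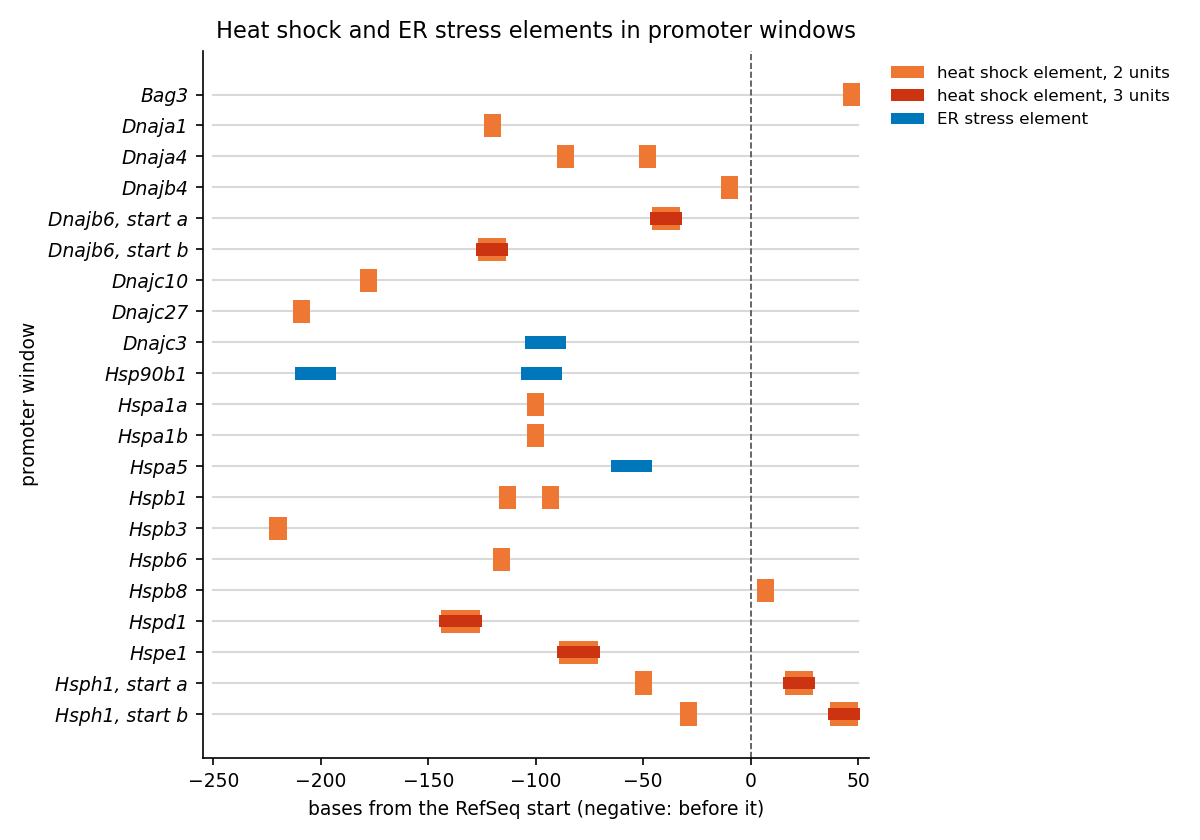
Positions of heat shock and ER stress elements in the promoter windows of tested members that hold one, in bases from the RefSeq start, with 1 line per window and the dashed line at the start. Hspa1a and Hspa1b hold the element at the same place (-104), Hspd1 and Hspe1 hold overlapping elements of 3 units, and the ER stress element is in Dnajc3, Hsp90b1 and Hspa5.

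To ask whether the chaperone genes differed between the genotypes, all 28305 tested probes were fitted together. By limma, 0 of 71 members were called at an adjusted p under 0.05 with a fold change over 2, as 0% of all probes were. At an unadjusted p under 0.05 limma gave 0 members, against 1.45% of all probes. The methods' t-test gave 1 member at that level (Dnajb12) against 3.11% of all probes, normexp background correction gave 2 (Hspa1a and Hspa1b) against 4.11%, and eBayes with trend and robust estimation gave 1 (Hspa1a) against 1.16%. The shares of members (1.41%, 2.82% and 1.41%) were thus near or below those of all probes. Without KO 3, 28 members (39.4%) had an unadjusted p under 0.05, against 25.7% of all probes, and 16 (22.5%) were over 2-fold higher in KO, against 9.71%. The adjusted p of every member by limma was 0.9999, so no difference below passed the test and each is given as a description. The smallest two-sided p that an exact permutation test of 2 arrays against 2 allows is 0.333.

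Most members had a higher mean in KO, but few kept the groups apart. The mean was higher in KO for 60 of 71 members (84.5%), while 55.1% of all 15083 named genes were higher, and with quantile normalization, which the deposited table also follows, the count was 47 of 71 (66.2%) against 50.3% of named genes. The median difference of the members was 0.20, against 0.04 over all named genes, and it became 0.11 with quantile normalization. Named genes were not matched to the members for brightness, and the median level on WT 2 was 2.10 for members and 0.12 for named genes. KO 2 also had the lowest 75th percentile, 608. The part of brightness and scaling in these counts was not tested. The KO arrays both exceeded the WT arrays for 9 members (12.7%), a share near the 13.3% of all named genes, and both fell short of them for 3 members, against 8.91%. The higher means were seen mainly at number 2. KO 2 lay above WT 2 for 55 of 71 members, with a median difference of 0.43, where 53.5% of named genes did. KO 3 lay above WT 3 for 37 of 71, with a median difference of 0.01, where 54% of named genes did. Without KO 2 the median difference of the members was -0.07, and without KO 3 it was 0.43.

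**Figure D2:**
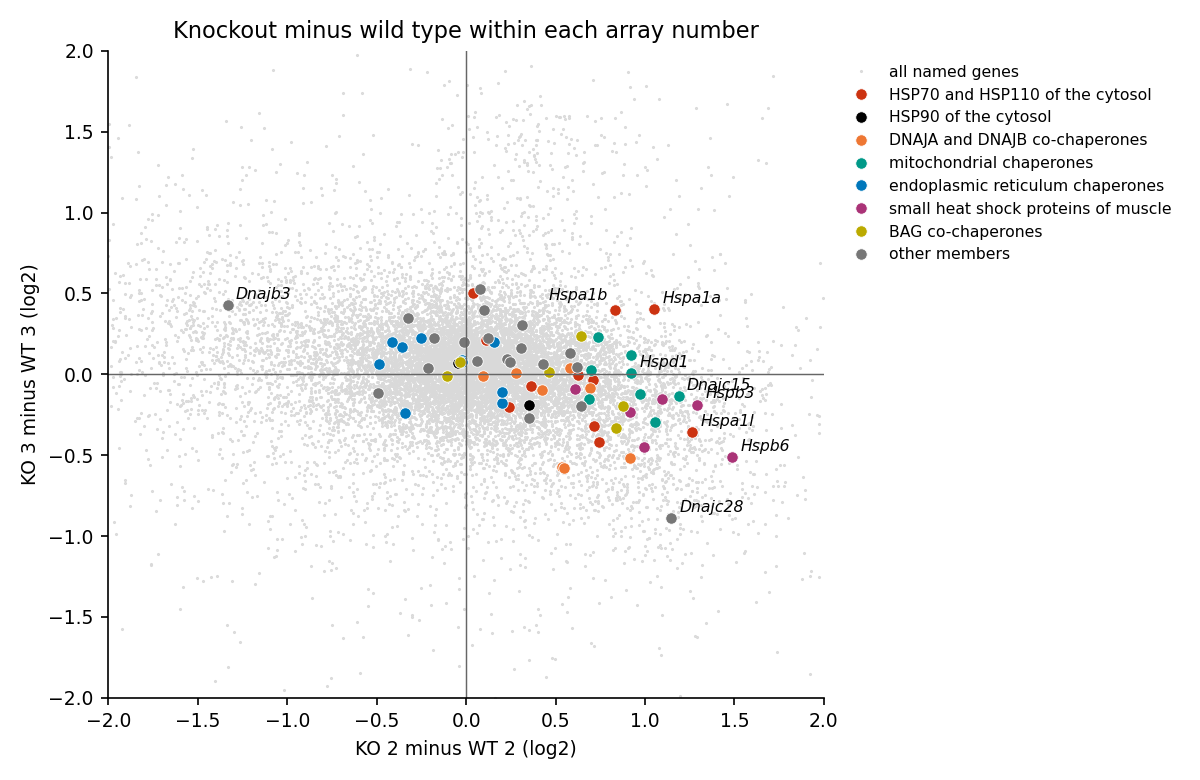
Each point is a gene, with KO 2 minus WT 2 on the horizontal axis and KO 3 minus WT 3 on the vertical axis (log2), the 71 tested members coloured by group over all 15083 named genes in grey (496 of which lie outside the axes). Members spread to the right of 0 (median 0.43) and lie on both sides of 0 on the vertical axis (median 0.01, from -0.89 for Dnajc28 to 0.53 for Dnajc9), while ER chaperones lie around the origin.

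Among the cytosolic HSP70 and HSP110 genes, inducible Hspa1a and Hspa1b stood out in the order of differences. Hspa1a was measured by a probe on chromosome 17, 35106766 to 35106825 (mm9), at 0.82 and 1.05 in WT and 1.87 and 1.46 in KO. Each KO array exceeded each WT array, also before scaling, where the deposited intensities were 1545 and 2022 in WT and 2221 and 2428 in KO. WT read 0.93 ± 0.16 and KO 1.66 ± 0.29 (SD, n = 2 each), a difference of 0.73 with an SE of 0.27, a fold of 1.66 and a limma adjusted p of 0.9999. It was 1.05 at number 2 and 0.40 at number 3, and between 0.52 and 0.94 with any array left out. A second probe overlapping the first gave 0.71.

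Hspa1b, at 35094200 to 35094259 of the same chromosome, read -2.28 and -2.04 in WT and -1.44 and -1.65 in KO. The scaled groups did not overlap, but the intensities before scaling did, at 181 and 237 in WT and 223 and 283 in KO. Its difference was 0.62 with an SE of 0.23 (limma adjusted p 0.9999), with 0.83 at number 2 and 0.40 at number 3, and it ran from 0.50 to 0.73 with any array left out. These were the largest differences of the 71 members. Over all named genes, 278 (1.84%) kept the groups apart with a higher KO and a difference at least as large as that of Hspa1a, and 362 (2.4%) as that of Hspa1b. The 2 genes are near copies, so their probes may read each other's RNA and they are not independent of each other. Both were higher in KO under each scaling (75th percentile, array median, quantile, normexp and the deposited values), between 0.68 and 0.76 for Hspa1a and between 0.57 and 0.64 for Hspa1b.

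The rest of the cytosolic HSP70 family had smaller differences, and most of them did not keep the groups apart. Hspa1l, the testis-type relative whose gene lies 546 bases from Hspa1a, read -1.57, -1.54, -0.31 and -1.90 in the order WT 2, WT 3, KO 2, KO 3, so KO 2 alone was high and KO 3 was the lowest. Hspa8, the constitutive HSP70 of every cell, read 5.93, 5.80, 6.29 and 5.73, with a difference of 0.15 that became -0.08 with quantile normalization. Hspa2, another constitutive relative, read -0.19, -0.33, -0.15 and 0.17, a difference of 0.27 with an SE of 0.24, of which 0.04 came at number 2 and 0.50 at number 3. A second Hspa2 probe gave a difference of 0.06, with overlapping groups. Hsph1, an HSP110 exchange factor, read 2.47, 2.58, 2.71 and 2.38, and its difference of 0.02 became -0.08 with quantile normalization. As a group, 11 of 11 had a higher KO mean, and 9 of 11 with quantile normalization. The median difference was 0.27, or 0.71 at number 2 and -0.03 at number 3. Of the 11, 4 kept both KO arrays above WT, against 13.3% of all named genes. They were Hspa1a, Hspa1b, Hspa2 and Hspa14, the last named after its values were seen. With quantile normalization 3 of 11 had both KO arrays above WT and 1 of 11 had both below. Of the 15083 named genes, 1730 and 1406 did so. Without KO 2 the group median was -0.13.

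**Figure D3:**
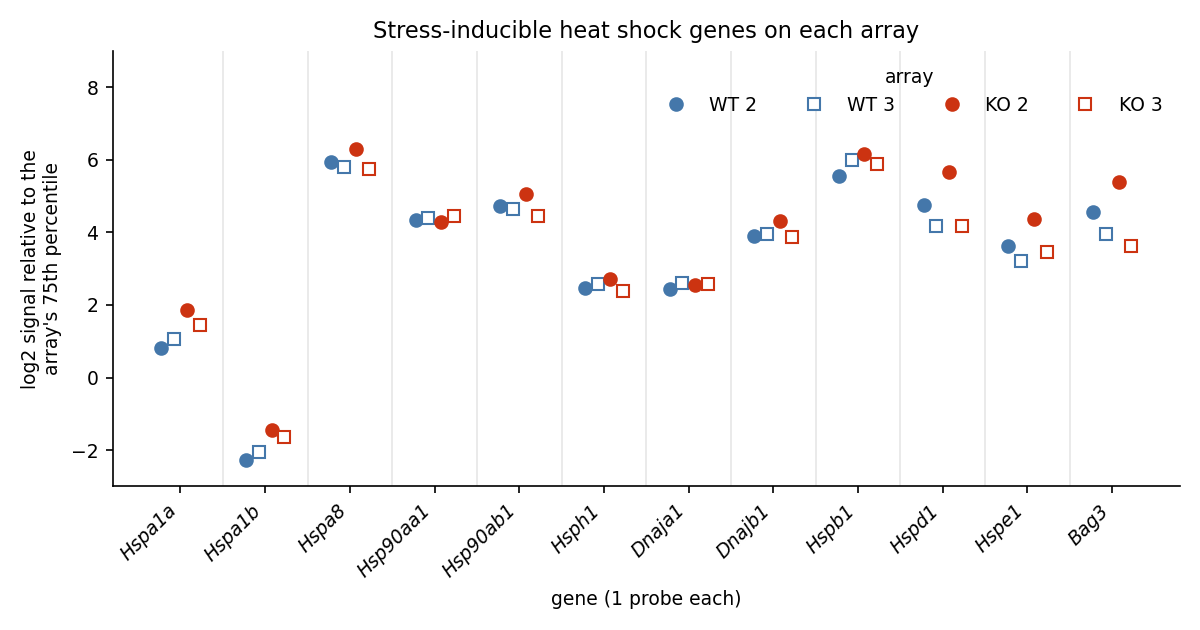
Level (log2, against the array's 75th percentile) of the 12 stress-inducible heat shock genes, with WT in blue, KO in red, filled circles for number 2 and open squares for number 3. Only Hspa1a and Hspa1b show both KO points above both WT points, while the KO 2 point is highest for most of the others. Heights of different genes are not comparable.

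The 12 stress-inducible genes of all compartments, targets of heat shock factor 1 by common knowledge, had a higher KO mean in 12 of 12, but in 7 of 12 with quantile normalization. Their median difference was 0.21 (0.01 with quantile normalization), with 0.52 at number 2 and -0.04 at number 3, and it was -0.02 without KO 2. Of the 12, 2 kept both KO arrays above WT, the near copies Hspa1a and Hspa1b, where 13.3% of all named genes did. The list of 12 also holds Hspa8 and Hsp90ab1, the constitutive forms of HSP70 and HSP90.

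HSP90 of the cytosol, which matures kinases and steroid receptors, showed differences near 0. Hsp90aa1, the inducible form, read 4.33 and 4.39 in WT and 4.28 and 4.46 in KO, so that the 4 levels lay within 0.18 of each other. Its difference was 0.01 with an SE of 0.21. Hsp90ab1, the constitutive form, read 4.71, 4.65, 5.06 and 4.46 in the same order, so the KO arrays lay on both sides of WT. The median of both was 0.05, and it became -0.14 with quantile normalization and with the deposited values, where 0 of 2 were higher in KO.

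The cytosolic and nuclear DNAJA and DNAJB proteins, which bring clients to HSP70, were higher in KO at number 2 for 8 of 8 genes and at number 3 for 2 of 8. Dnajb1, the main inducible HSP40, read 3.89 and 3.97 in WT and 4.31 and 3.87 in KO, so KO 2 was high and the other arrays were close together. Its difference was 0.16 with an SE of 0.26. Dnaja1 read 2.44, 2.60, 2.54 and 2.59, with a difference of 0.04 that turned to -0.05 with quantile normalization and with the mean of its probes. Dnajb5 read -0.86, -1.62, 0.05 and -2.14, so KO 2 was the highest and KO 3 the lowest array, with a difference of 0.20 and an SE of 0.87. By mean, 6 of 8 were higher in KO (8 with the array median, 5 with quantile normalization or normexp), with a median of 0.15 that went to 0.04 with quantile normalization and with the deposited values, to -0.25 without KO 2 and to 0.66 without KO 3.

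Of all groups the mitochondrial chaperones had the largest median difference, 0.45, and 8 of 8 were higher in KO under each scaling (0.28 with quantile normalization). Hspd1 (HSP60), which forms the folding chamber of the matrix, read 4.75 and 4.17 in WT and 5.67 and 4.18 in KO. Hspe1 (HSP10), the lid of that chamber, read 3.63, 3.22, 4.37 and 3.45. In both, KO 2 was the highest array, and KO 3 lay within the WT range. The differences were 0.47 (SE 0.62) for Hspd1 and 0.49 (SE 0.42) for Hspe1, with a limma adjusted p of 0.9999 for each. At number 2 they were 0.92 and 0.74, and at number 3 they were 0.01 and 0.23, so this head-to-head pair had its difference mostly in 1 of the 2 numbers.

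Hspa9 (mortalin), the mitochondrial HSP70 that pulls proteins through the inner membrane, read 3.88, 3.25, 4.85 and 3.13, and its partner Dnaja3 read 1.91, 1.32, 2.96 and 1.02. Both followed the order KO 2, WT 2, WT 3, KO 3 from high to low, as did 4 of 8 in the group, against 19.6% of all named genes. None of the 8 kept the groups apart. The group median was 0.92 at number 2 and -0.06 at number 3, it was -0.30 without KO 2, 1.204 without KO 3 and 0.16 without WT 3, and all 8 were higher on the number 2 array than on the number 3 array by a median of 0.99.

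The small heat shock proteins showed the same array order most fully. Hspb6 (HSP20), a phosphorylated partner of the contractile apparatus, read 1.52 and 0.52 in WT and 3.004 and 0.00 in KO. The deposited intensities ran from 886 on KO 3 to 4873 on KO 2, so the KO arrays enclosed both WT arrays. Hspb3, a muscle form, read 1.52, 0.00, 2.81 and -0.18, and Hspb7, known as cardiovascular HSP, read 3.88, 3.06, 4.97 and 2.91. Hspb8, which acts with Bag3 in selective autophagy of damaged filaments, read 3.99, 3.16, 4.99 and 2.72. Hspb2, a partner of Hspb3, read 4.29, 4.08, 5.21 and 3.85. In each of these 5 the order was KO 2, WT 2, WT 3, KO 3. Hspb1 (HSP25), the widely expressed inducible form, was the exception, at 5.55, 5.99, 6.15 and 5.89.

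All 6 were higher in KO at number 2 (0.61 to 1.49, median 1.05) and all 6 were lower at number 3 (-0.51 to -0.09, median -0.21), under each scaling. Mean differences of 0.26 to 0.55 therefore had standard errors of 0.28 to 1.24 and a limma adjusted p of 0.9999, and 0 of 6 kept the groups apart. These values are of the brightest probe of each gene. A second Hspb7 probe read 2.66, 1.43, 4.09 and 1.72, so it was higher in KO at number 3 (0.29) and lacked the array order. A second Hspb2 probe kept both signs (0.90 and -0.28) and the order. The group median was 0.41, with 0.22 under quantile normalization and in the deposited values, -0.71 without KO 2, 1.46 without KO 3, 0.79 without WT 2 and 0.03 without WT 3. Beside these values, the cardiomyocyte markers had a median level of 7.48 and 5.93 in WT and 8.47 and 5.21 in KO. Their median difference was 0.98 at number 2 and -0.71 at number 3. With quantile normalization it was 0.41 and -0.82, beside 0.73 and -0.24 for the small heat shock proteins. The KO mean was higher for 6 of 10 markers, and for 1 of 10 with quantile normalization, where all 6 small heat shock proteins stayed higher. The part of muscle content in the differences of the small heat shock proteins was not tested. Cryab, the small heat shock protein of the lens and heart that neighbours Hspb2 on chromosome 9, was not taken by the rule and read 6.21, 5.84, 7.22 and 5.86.

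**Figure D4:**
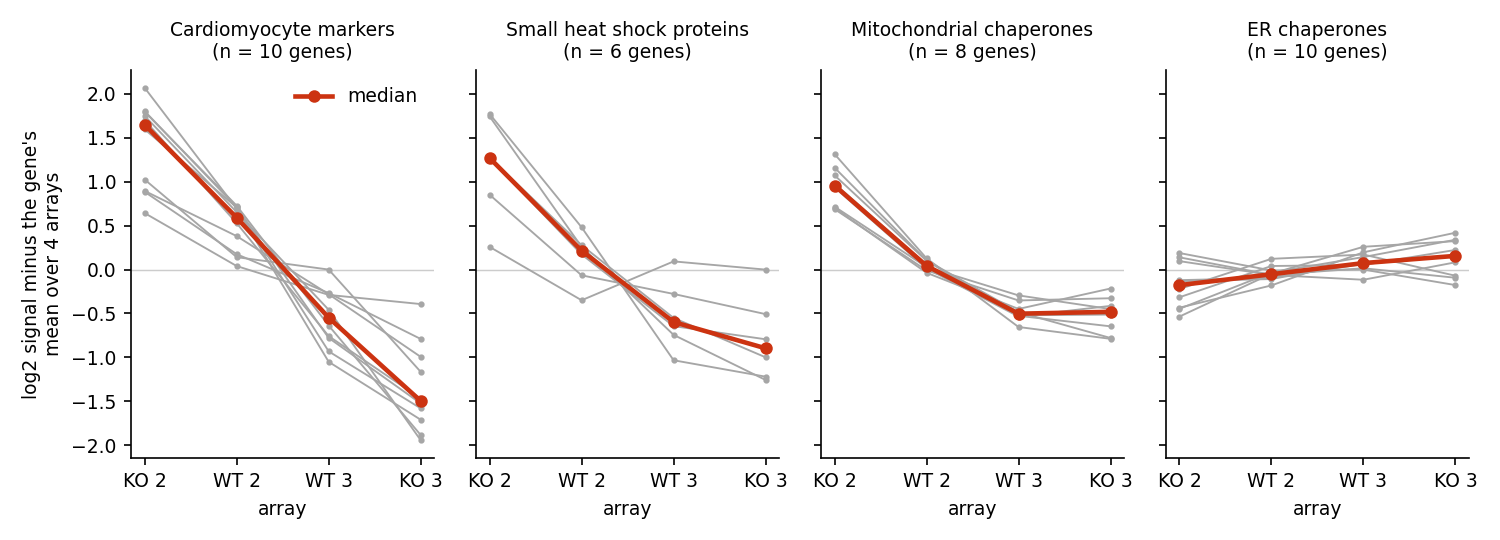
Log2 signal of each gene minus its mean over the 4 arrays (grey lines) and the median of the list (red), with arrays ordered KO 2, WT 2, WT 3, KO 3. Cardiomyocyte markers (10 genes) and small heat shock proteins (6) descend from KO 2 to KO 3, and mitochondrial chaperones (8) descend to WT 3 and level off. The ER chaperones (10) lack this descent, and several lie lowest on KO 2.

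The ER chaperones lacked this order, with 0 of 10 in it. Hspa5 (BiP), the HSP70 of the ER, read 4.89 and 4.97 in WT and 5.09 and 4.86 in KO. Hsp90b1 (GRP94), the HSP90 of the ER, read 5.56, 5.75, 5.53 and 5.83. Neither kept the groups apart, and their differences of 0.05 and 0.03 became -0.16 and -0.19 with quantile normalization. Dnajb9, which regulates the stress sensor IRE1, read 1.55, 1.56, 1.74 and 1.38. Dnajc3 (p58IPK), an inhibitor of eIF2alpha kinases, read 2.54, 2.72, 2.13 and 2.91, with a difference of -0.11 and an SE of 0.36. By the brightest probes, Dnajc1, an ER membrane protein, was the member of this group whose KO arrays both lay below WT. It read 3.15, 3.19, 2.80 and 2.95, with a difference of -0.29, an SE of 0.21 and a limma adjusted p of 0.9999. On the other tested Dnajc1 probes the groups overlapped, with differences of -0.19 and -0.29. Dnajb12, named after its values were seen, had both KO arrays above WT, at 2.27, 2.21, 2.42 and 2.41. In all, 5 of 10 had a higher KO mean, but only 1 of 10 with quantile normalization, and the median difference of -0.0022 became -0.15. At number 2 it was -0.14 and at number 3 it was 0.08, the opposite signs to those of the muscle small heat shock proteins, and without KO 3 it was -0.24.

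Of the BAG co-chaperones, Bag3, the muscle partner of Hspb8 that is also induced by heat shock factor 1, read 4.55 and 3.95 in WT and 5.39 and 3.61 in KO. It followed the order of the cardiomyocyte markers, with a difference of 0.25 and an SE of 0.72. Bag4, a regulator of death receptors, was nearly level at -1.86, -1.95, -1.97 and -1.96, so both KO arrays lay below WT by a margin of 0.01, and its difference of -0.06 became 0.07 with normexp. By mean, 5 of 6 were higher in KO (4 of 6 with quantile normalization), with a median of 0.25 that became 0.06 with quantile normalization, -0.08 without KO 2 and -0.02 without WT 3.

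The 20 other members tested are mostly DNAJC proteins with dedicated tasks, and 17 had a higher KO mean. Dnajc25 read 0.84 and 0.61 in WT and 1.15 and 0.92 in KO, with the same difference of 0.31 at both numbers. Dnajc9, a co-chaperone of histones, read 2.15, 2.04, 2.23 and 2.57, with a difference of 0.30 that lay mostly at number 3 (0.53). Dnajc7, which binds HSP70 and HSP90 together, read 1.58, 1.42, 1.09 and 1.30, a difference of -0.30 with an SE of 0.22. Its sign was kept with each array left out, from -0.41 to -0.20, and so was that of Dnajc1, from -0.37 to -0.22. Dnajc2 and Hspb9, named after their values were seen, also had both KO arrays above WT, with differences of 0.23 and 0.25.

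**Figure D5:**
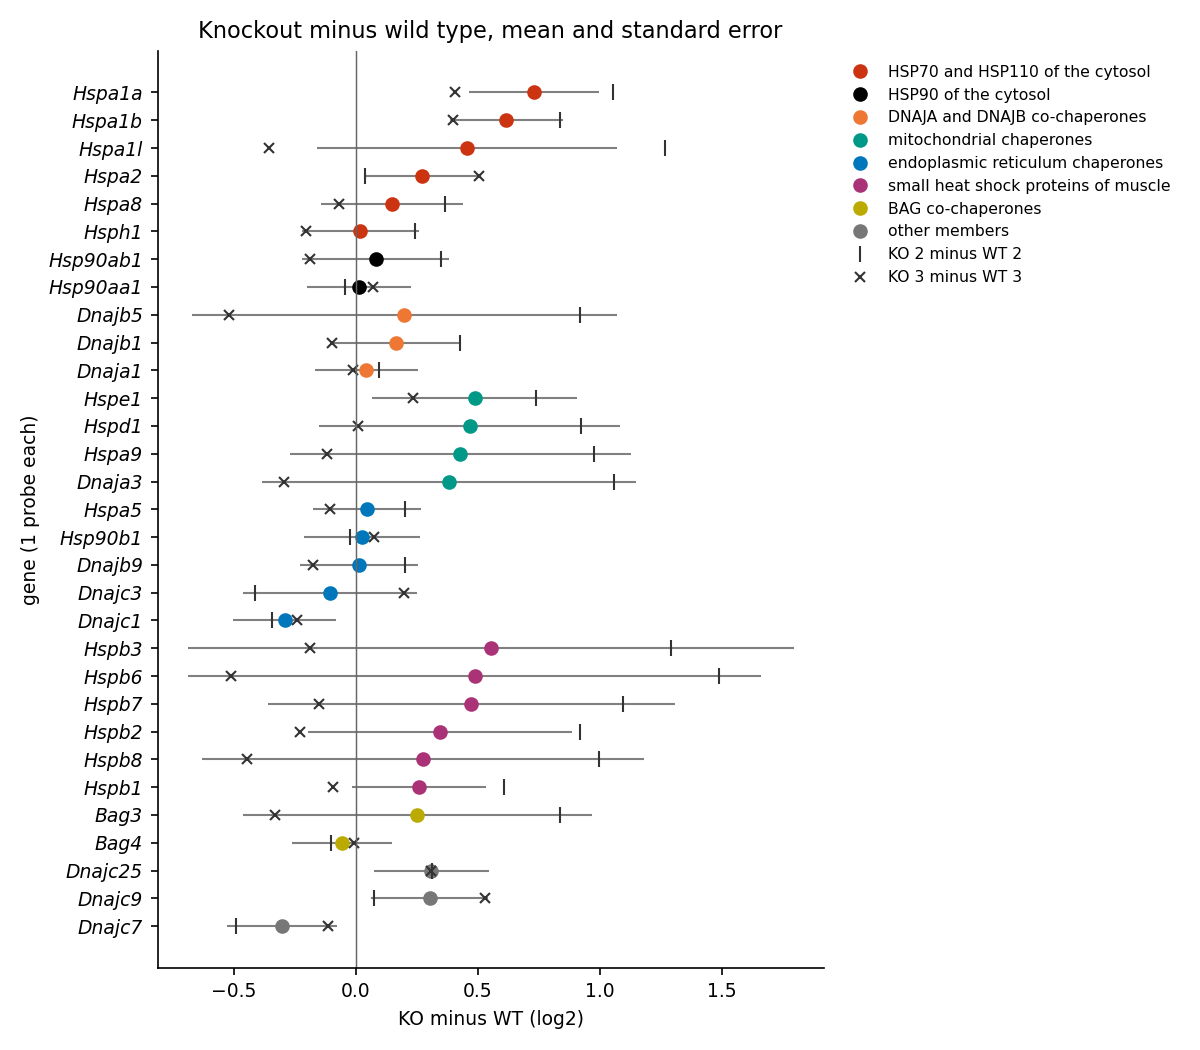
Mean difference KO minus WT (log2, points coloured by group) with its standard error from limma (bars), beside the difference at number 2 (vertical ticks) and at number 3 (crosses), 2 arrays per group. For Hspa1a and Hspa1b both marks lie on the side of higher KO, and for the small heat shock proteins the ticks and crosses lie on opposite sides of 0.

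By size within a number, 8 members exceeded 2-fold in favour of KO 2 over WT 2 (11.3%, against 6.95% of named genes), and they were Hspa1a, Hspa1l, Hspb3, Hspb6, Hspb7, Dnaja3, Dnajc15 and Dnajc28, the last 2 named after their values were seen. In the other direction 1 did, Dnajb3 at -1.33, also named after its value was seen, against 9.38% of named genes. Between KO 3 and WT 3, 0 members differed by over 2-fold in either direction, against 2.59% of named genes higher and 1.78% lower. The order KO 2, WT 2, WT 3, KO 3 held for 24 of 71 members (33.8%), against 19.6% of named genes. Signs were opposite at the 2 numbers for 44 of 71 members, 31 of them above at number 2 and below at number 3 (43.7%, against 27.6% of named genes) and 13 the other way (18.3%, against 28.2%).

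Other cell types moved across the arrays as well. The 8 fibroblast markers had median levels of 7.15 and 7.06 in WT and 5.91 and 7.24 in KO, and 8 of 8 were lower on KO 2 than on WT 2. Macrophage markers (7 tested) had medians of 2.93 on both WT arrays, 1.65 on KO 2 and 3.62 on KO 3. By gene, 1 of 7 went the other way, higher on KO 2 than on WT 2. It was Cd163 (-1.13, -1.41, 0.47 and -0.91), named after its values were seen, with both KO arrays above WT. Endothelial markers (7 tested) had KO 2 above WT 2 and KO 3 below WT 3 for 7 of 7, with median differences of 0.55 and -0.29. Red cell markers (4 tested) had a median of 3.26 on WT 2 against 5.14, 5.22 and 4.07 on the others. The array medians of skeletal muscle markers (6 tested) lay between -0.24 and 0.37, with Actn3 and Myh2 too dim to test. Of these 6, 2 followed the order KO 2, WT 2, WT 3, KO 3. They were Myh4 (5.91, 4.73, 7.20 and 3.11) and Ckm (2.96, 0.69, 4.54 and -0.24), both named after their values were seen. KO 2 thus stood apart with more cardiomyocyte and less fibroblast and macrophage signal than WT 2, and the part of this in the chaperone differences was not tested.

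The wider chaperone pathway was read from lists of genes outside the rule, of which 64 were tested, 0 were called by limma, 0 had an unadjusted p under 0.05 and 47 had a higher KO mean (36 with quantile normalization). Heat shock factors and their binding protein were higher in 3 of 3, with Hsf1, the master regulator, at 3.75 and 3.66 in WT and 3.92 and 3.91 in KO, so both KO arrays lay above WT with a difference of 0.21, but overlapped WT with quantile normalization. The TRiC chaperonin and prefoldin, which fold actin and tubulin, were higher in 13 of 13, and 7 of 13 kept both KO arrays above WT, against 13.3% of all named genes. With quantile normalization these counts were 9 of 13 and 4 of 13, against 50.3% of named genes for the first and 1730 of 15083 for the second. Both KO arrays then lay below WT for 2 of 13, and for 1406 of the named genes. Their median was 0.18 (0.10 with quantile normalization), with 0.26 at number 2 and 0.07 at number 3, and their largest difference was 0.48 (Cct5, named after its value was seen). Cofactors of HSP70 and HSP90 were higher in 16 of 18 with a median of 0.15 (11 of 18 and 0.05 with quantile normalization), and mitochondrial quality control genes in 8 of 10 with a median of 0.17. The ER folding and unfolded protein response genes were higher in 7 of 20 with a median of -0.09 (-0.21 with quantile normalization), or -0.31 at number 2 and 0.14 at number 3. Their signs at both numbers were those of the ER chaperones among the members.

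Members with a heat shock element of 2 units in a promoter window had a median difference of 0.27 (16 tested, 14 higher in KO), and members whose windows lacked it had 0.18 (42 tested, 35 higher). At number 2 these medians were 0.67 and 0.28, and at number 3 they were -0.05 and 0.04. The 3 members with an ER stress element differed by -0.11 to 0.05. For 40 members with more than 1 tested probe, 54 of the 65 other probes had the sign of the brightest probe in the mean difference, 58 did at number 2 and 44 did at number 3.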

How the data were processed

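Left ventricular RNA was hybridised to 4 arrays of 1 slide and scanned on 1 day. The authors extracted each spot's intensity with Agilent Feature Extraction (10.7 per the labels, 10.7.3.1 per the file headers, grid on mm9) and also deposited a table of log2 values made with GeneSpring, whose normalization is not given in the sources used here. Quantile normalization of the log2 intensity matched the deposited values (median 6.78) to within 0.01 for 99.9% of probes on each array. The median offset of each array was removed before this comparison.

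Spots with an outlier flag (92 to 116 an array) were left out, spots of a probe were averaged, and log2 intensity was shifted by each array's 75th percentile (608 to 976). Background was clearly exceeded by 68.1% to 72.0% of probes, and the number of arrays limits the precision. The 28305 probes well above background on both arrays of a group were tested (12863 were too dim, 6 lacked a value) with limma 3.58.1 in R 4.3.3, lmFit and eBayes, Benjamini-Hochberg adjustment over all probes. The fit was tested on simulated data. The members and lists were chosen with earlier results of these data known. Genes named are the stress-inducible and small heat shock lists, 9 chaperones of the compartments, and up to 4 of the largest differences each way among members whose groups did not overlap. Any others are marked in the text. An mm9 annotation was not used here, so exon positions of probes are not given. Promoters came from RefSeq. Alternatives were normexp (offset 50), quantile normalization, the array median, other filters on dim probes, the deposited values, all probes of a gene, the array number as a block, trend and robust estimation, the methods' t-test and each array left out.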

Additional observations from a re-analysis of the deposited data

How the results depend on the processing

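No member was called by limma under any alternative. Leaving out KO 3 came nearest, with a lowest adjusted p among members of 0.151 by limma. Hspa1a and Hspa1b, and also Hspb1, Hspe1, Hspa2, Dnajc25, Dnajc9, Dnajc7 and Dnajc1, kept their sign under every alternative run. Over single genes with all 4 arrays kept, 290 values kept their direction and 20 reversed, in 9 genes, and the cause was not tested. With quantile normalization and with the deposited values alike, Hspa8 became -0.082, Hsp90aa1 -0.15, Hsp90ab1 -0.13, Hsph1 -0.079, Dnaja1 -0.045, Hspa5 -0.16, Hsp90b1 -0.19 and Dnajb9 -0.036, and the group medians of HSP90, the BAG co-chaperones, DNAJA and DNAJB, and the small heat shock proteins became -0.14, 0.060, 0.038 and 0.22. With normexp, which moved the median of all probes from 0.02 to 0.13, Hsp90aa1 became -0.056, Dnaja1 -0.0074 and Bag4 0.067. The mean of all tested probes gave -0.049 for Dnaja1.

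With each array left out in turn, the medians ran from -0.25 to 0.66 (DNAJA and DNAJB), -0.30 to 1.204 (mitochondrial), -0.24 to 0.17 (ER) and -0.082 to 0.69 (BAG). Single genes that reversed ran from -0.13 to 0.43 (Hspa8), -0.077 to 0.10 (Hsp90aa1), -0.22 to 0.38 (Hsp90ab1), -0.15 to 0.18 (Hsph1), -0.036 to 0.12 (Dnaja1), -0.058 to 0.39 (Dnajb1), -0.28 to 1.21 (Hspd1), -0.64 to 1.14 (Bag3), -0.34 to 1.02 (Hspb2), -0.94 to 2.05 (Hspb3), -1.01 to 1.99 (Hspb6), -0.56 to 1.503 (Hspb7), -0.86 to 1.41 (Hspb8), -0.071 to 0.16 (Hspa5), -0.12 to 0.17 (Hsp90b1), -0.17 to 0.19 (Dnajb9), -0.50 to 0.29 (Dnajc3), -0.43 to 1.29 (Hspa9), -0.59 to 1.35 (Dnaja3), -0.34 to 1.25 (Hspa1l) and -0.90 to 1.29 (Dnajb5). In these fits the single array left in a group took its spread from the other group.

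The array number as a replicate block called 0 probes and left every difference as it was, with 602 probes and 0 members at an unadjusted p under 0.05. The numbers did not pair the samples by any label, although WT 2 minus WT 3 correlated with KO 2 minus KO 3 at r = 0.57 over 28305 probes, which are not independent. Slide and scan could not be fitted as blocks, since every array shared both.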
